A study of Homo sapiens with 6 samples.

Results

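The nuclear genes of the mitochondrial transcription and RNA processing machinery were described across 6 RNA-seq libraries. The set comprised 10 of the 49278 named genes in the deposited table, chosen by symbol: POLRMT, TFAM, TFB2M, TEFM, TWNK, TRMT10C, HSD17B10, ELAC2, LRPPRC and SLIRP. All 10 were present in the table, and all 10 passed the minimum mean of 1 TPM (the share of transcripts after correction for length) as did 17291 genes in all. The libraries came from HUES8, a human embryonic stem cell line, after 3 days of differentiation to definitive endoderm (DE) with 100 ng/ml Activin A, a treatment that all groups shared. The groups were WT (n = 2), PDHB+/-_1 (n = 2) and PDHB+/-_2 (n = 2), and each PDHB+/- line was a single clone obtained by CRISPR editing of PDHB, a subunit gene of the pyruvate dehydrogenase complex. The comparison addressed which RNAs differ after DE differentiation between WT cells and these clones, in which 1 allele of PDHB had been lost beforehand. Differences due to the lost allele and those due to cloning or editing cannot be told apart in this design.

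Mitochondria transcribe their small circular genome with a polymerase of their own, which is encoded in the nucleus like all of its partners. Transcription runs across most of the circle from each strand and gives long precursors in which transfer RNAs sit between the messenger and ribosomal RNAs. Cutting at both ends of the transfer RNAs therefore releases the other RNAs as well, and a protein pair then keeps the messenger RNAs stable. In tissues these genes are known from inherited disorders of mitochondrial gene expression.

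The stretches of 120 bases just upstream of the annotated start are shown for 5 of these genes, because they place the letters of the transcription factor motifs searched here in genes that carry different motifs. They were taken from RefSeq promoters (GRCh38.p14), where 9 of the 10 genes were matched, all but TWNK. They are written 5′ to 3′ on the gene's own strand, and capitals mark matches to the NRF1 motif CGCANGCG, the ETS motif CCGGAAG or the YY1 motif AAGATGG on either strand. The stretches lie at chr19:633538-633657 (POLRMT, minus strand), chr1:246566262-246566381 (TFB2M, minus), chr17:30906239-30906358 (TEFM, minus), chr3:101561748-101561867 (TRMT10C, plus) and chrX:53434377-53434496 (HSD17B10, minus).
POLRMT: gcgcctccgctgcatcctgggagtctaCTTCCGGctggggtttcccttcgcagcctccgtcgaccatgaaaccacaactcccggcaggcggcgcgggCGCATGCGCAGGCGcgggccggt
TFB2M: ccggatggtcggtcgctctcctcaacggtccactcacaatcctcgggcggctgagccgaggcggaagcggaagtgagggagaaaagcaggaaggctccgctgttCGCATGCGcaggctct
TEFM: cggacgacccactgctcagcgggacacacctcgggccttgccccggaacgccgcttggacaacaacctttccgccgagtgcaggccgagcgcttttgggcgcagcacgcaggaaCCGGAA
TRMT10C: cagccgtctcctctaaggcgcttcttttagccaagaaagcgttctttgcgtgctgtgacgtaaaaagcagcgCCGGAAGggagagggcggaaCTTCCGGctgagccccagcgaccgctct
HSD17B10: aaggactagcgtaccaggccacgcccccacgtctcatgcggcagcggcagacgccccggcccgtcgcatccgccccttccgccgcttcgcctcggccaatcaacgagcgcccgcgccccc

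In POLRMT 2 NRF1 matches overlap, at 23 and 17 bases before the start, and 1 NRF1 match lies 16 bases before the start of TFB2M. TRMT10C has 2 ETS matches, 48 and 28 bases before the start, and in TEFM the ETS match begins 6 bases before the start and runs 1 base into the transcript. No NRF1, ETS or YY1 letters occur in the HSD17B10 stretch. Over the full window of 250 bases before to 50 bases after the start, the NRF1 motif was found in 3 of the 9 genes (POLRMT, TFAM and TFB2M) and in 10.04% of all 35116 promoters. The ETS motif was found in 5 of 9 (POLRMT, TEFM, TRMT10C, ELAC2 and SLIRP) and in 10.3% of all promoters. The YY1 motif was found in 3 of 9 (HSD17B10, LRPPRC and SLIRP) and in 5.84% of all promoters. The SP1 motif GGGCGG was found in 6 of 9 against 45.0%, and the E-box CACGTG in 0 of 9 against 7.26%. A match says only that the letters are present, and factor binding was not measured in these data.

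The libraries held between 11367710 and 14315614 reads on genes, recovered from the TPM values, and the lowest count of any of the 10 genes was 93 reads, for TEFM in WT. PDHB, the edited gene, averaged 365 ± 5.07 TPM (SD, n = 2) in WT and 175 ± 18.7 TPM (SD, n = 4) in the PDHB+/- lines, or 48.0% of WT. The DE markers SOX17 and FOXA2 were present in every library, at 442 and 142 TPM on average in WT and at 739 and 131 TPM in PDHB+/- cells. The 37 RNAs encoded by mitochondrial DNA took 24.6% and 24.4% of the TPM total in WT, 12.1% and 19.9% in PDHB+/-_1, and 10.9% and 20.9% in PDHB+/-_2. TPM shares sum to a fixed total, and over all tested genes the fold changes of PDHB+/- against WT had a median of 0.13 in log2. Values below are given as deposited and relative to this shift, and again after median-of-ratios scaling, which divides each library by the median ratio of its genes to their geometric mean over libraries. Under this scaling the median of all genes was -0.00059. The labels do not say whether the replicates came from separate cultures, so p-values measure only the spread between these libraries.

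In WT the levels covered a range from 9.09 TPM for POLRMT to 133 TPM for HSD17B10. TPM corrects for transcript length, but how fully mapping captured the reads of each gene was not tested. The order between genes is therefore one of TPM values as counted. The order in WT was HSD17B10 (133), SLIRP (92.4), LRPPRC (72.9), TRMT10C (69.0), ELAC2 (58.1), TFAM (25.7), TEFM (15.8), TFB2M (12.1), TWNK (11.7) and POLRMT (9.09 TPM, without the reads of its pseudogene). The 5 genes of RNA processing and stabilization thus had higher TPM values than the polymerase, its factors and the helicase. Of these neighbours, TFB2M and TWNK overlapped between the 2 WT libraries and the others did not. In PDHB+/- cells TWNK stood above TFB2M in the order, at 18.3 against 15.8 TPM, and these 2 genes overlapped over the 4 libraries. Other neighbours that overlapped in PDHB+/- cells were SLIRP with LRPPRC, TRMT10C with ELAC2, TEFM with TWNK, and TFB2M with POLRMT.

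**Figure D1:**
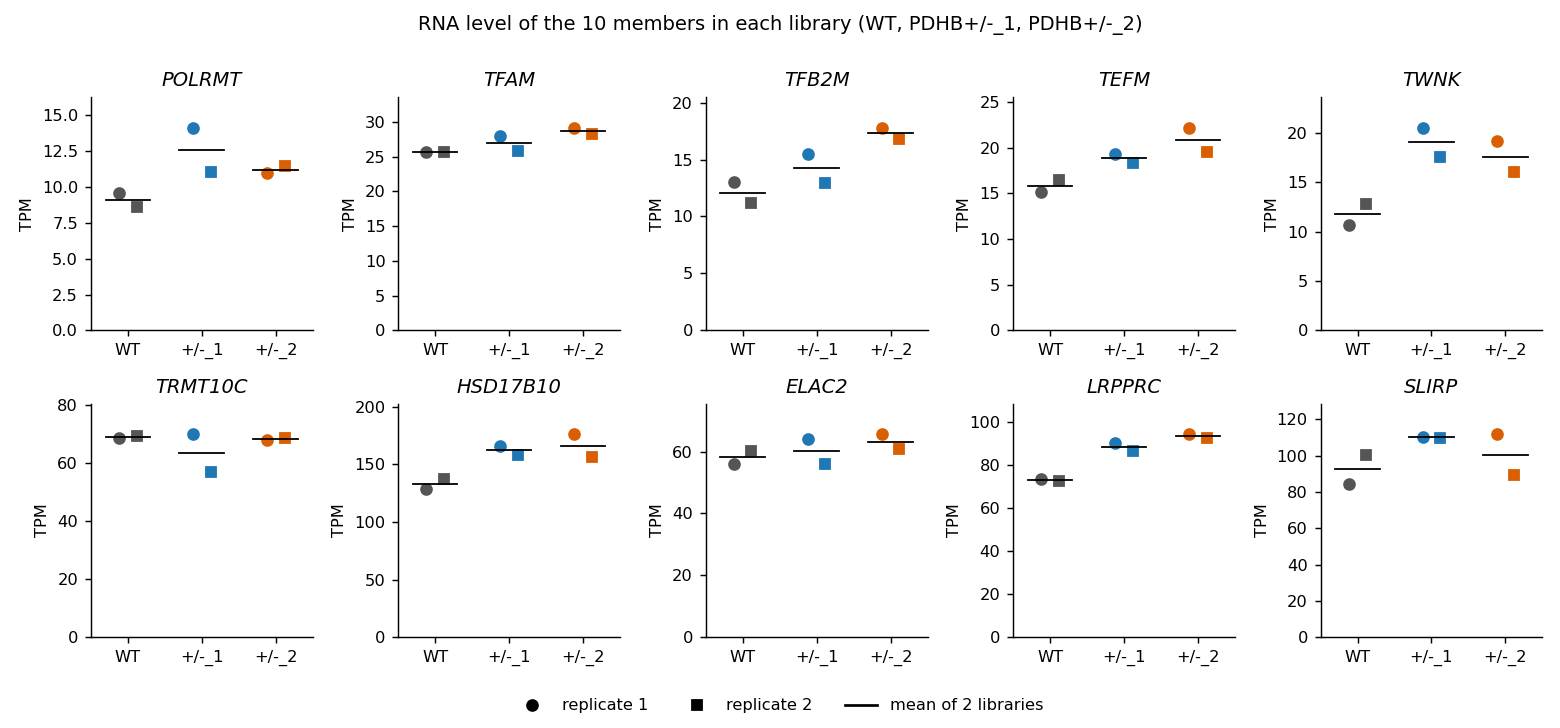
RNA level in TPM (y axis, from 0) of each gene in the 2 WT, 2 PDHB+/-_1 and 2 PDHB+/-_2 libraries (x axis). Circles are replicate 1, squares replicate 2 and lines the mean of 2 libraries, and TWNK shows the widest gap relative to its level between WT (10.6 and 12.8 TPM) and the PDHB+/- libraries (16.0 to 20.5 TPM).

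Between PDHB+/- and WT, 4 of the 10 genes were called as higher and 0 as lower (limma, Benjamini-Hochberg adjusted p under 0.05). The called genes were TWNK, LRPPRC, HSD17B10 and TEFM. Among all tested genes 22.8% were called as higher, 8.86% as lower and 31.7% in either direction, so 4 of 10 stands beside a high background. At an unadjusted p under 0.05 there were 6 genes of the 10, the other two being POLRMT and TFB2M, beside 44.3% of all tested genes. The median log2 fold change of the 10 genes was 0.30, against 0.13 for all tested genes. All 4 PDHB+/- libraries lay above both WT libraries for 6 of the 10 genes (POLRMT, TFAM, TEFM, TWNK, HSD17B10 and LRPPRC), and 38.4% of all tested genes did so. After median-of-ratios scaling 1 of the 10 genes was called, TWNK, against 14.0% of all genes called as higher and 14.5% as lower. Of all calls 72.02% were higher as deposited and 49.1% after this scaling.

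Marker genes of DE and of other cell states were read in the same groups. Their counts stand beside 22.8% of all tested genes called as higher and 8.86% as lower as deposited. After median-of-ratios scaling these shares were 14.0% and 14.5%. Of 10 pluripotency markers, 5 were called as higher and 1 as lower, with a summed level of 2443 to 2486 TPM in WT and 2561 to 3046 TPM in PDHB+/- cells, and no marker was at 0. POU5F1 was at 2.21 ± 0.11 TPM (SD, n = 2) in WT and 7.78 ± 1.85 TPM (SD, n = 4) in PDHB+/- cells, and NANOG at 6.69 ± 0.76 and 20.6 ± 3.59 TPM. The called fall in this list was ZFP42, at 16.2 ± 1.22 TPM in WT and 2.30 ± 0.84 TPM in PDHB+/- cells (-2.41 in log2, adjusted p = 0.00070). Of 12 DE markers 2 were higher and 2 lower as deposited, and 2 higher and 5 lower after median-of-ratios scaling (14.0% and 14.5% of all genes). The called rises were SOX17 (0.74 in log2, limma, adjusted p = 0.00088) and EOMES (0.62, adjusted p = 0.0030). The called falls were GSC (-0.52, adjusted p = 0.0041) and HHEX (-0.41, adjusted p = 0.040). Each of these remained called after median-of-ratios scaling. FOXA2 was not called as deposited (-0.11 in log2, limma, adjusted p = 0.39). It was called lower after median-of-ratios scaling, at -0.26 (adjusted p = 0.039), and under 5 of 19 alternatives in all. The 12 DE markers summed to 16383 to 16596 TPM in WT and 11460 to 15554 TPM in PDHB+/- cells. Most of this was CER1, at 13728 TPM in WT and 9973 TPM in PDHB+/- cells on average. CER1 was not called as deposited (adjusted p = 0.095) and was called lower after median-of-ratios scaling, at -0.62 in log2 (adjusted p = 0.029). The other 11 summed to 2746 to 2778 TPM in WT and to 2962 to 3400 TPM in PDHB+/- cells. CXCR4, a surface marker of DE, was at 363 ± 6.01 TPM in WT and 209 ± 70.5 TPM in PDHB+/- cells. Its change of -0.86 in log2 was not called (adjusted p = 0.056). It was called lower after median-of-ratios scaling, at -1.004 (adjusted p = 0.031), without replicate 1 of PDHB+/-_1 or of PDHB+/-_2 (adjusted p = 0.045 and 0.032), and under 11 of 19 alternatives in all. Of 9 mesoderm markers 5 were tested and 4 were higher, with sums over the tested ones of 1042 to 1073 TPM in WT and 1014 to 1140 TPM in PDHB+/- cells. Most of this was MIXL1, at 1031 TPM in WT and 1002 TPM in PDHB+/- cells on average, which was not called (adjusted p = 0.75). The 4 higher ones were KDR (17.7 TPM in WT and 45.8 TPM in PDHB+/- cells), PDGFRA (8.38 and 19.2), HAND1 (0.11 and 3.39) and TBXT (0.68 and 2.60). HAND1, at 0 in 1 library, and TBXT averaged under 1 TPM in WT, so they passed the filter only through the PDHB+/- libraries. Among the markers not tested, TBX6 was at 1.61 TPM in WT and 0.66 TPM in PDHB+/- cells. MESP1, FOXF1 and MSGN1, also not tested, were higher on average in PDHB+/- cells. MSGN1 was at 0 in 5 of the 6 libraries. Of 8 ectoderm markers 4 were tested and 2 were higher, with sums over the tested ones of 534 to 540 TPM in WT and 475 to 596 TPM in PDHB+/- cells. Most of this was OTX2, at 428 TPM in WT and 348 TPM in PDHB+/- cells on average, which was not called (adjusted p = 0.086). NES rose from 91.2 to 164 TPM (adjusted p = 0.0035) and ZIC1 from 6.28 to 12.6 TPM (adjusted p = 0.0042). PAX6, at 11.4 and 7.31 TPM, was not called (adjusted p = 0.068). NEUROD1 was at 0 in 4 of the 6 libraries. After median-of-ratios scaling 2 of the 4 tested ectoderm markers were higher, NES and ZIC1, and 2 lower, OTX2 and PAX6. Of the 5 tested mesoderm markers 3 were then higher, TBXT losing its call (adjusted p = 0.069). Of the 10 pluripotency markers 3 were higher and 1 lower under this scaling. The part of these markers in the values of the machinery was not tested. In bulk RNA, fewer cells of a type and less RNA per cell cannot be told apart.

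Neither the polymerase nor the factors that start transcription with it were called in PDHB+/- against WT. POLRMT (chromosome 19, 617221 to 633537, hg38, ENSG00000099821.14), the RNA polymerase of mitochondria, was at 9.60 and 8.59 TPM in WT, 14.1 and 11.1 TPM in PDHB+/-_1, and 10.97 and 11.4 TPM in PDHB+/-_2. The groups did not overlap, and the highest value stood apart from the other PDHB+/- libraries. The fit gave a log2 fold change of 0.35 ± 0.12 (± standard error, as below, limma, adjusted p = 0.064), and after median-of-ratios scaling 0.22 (adjusted p = 0.21). POLRMT has a processed pseudogene, POLRMTP1, which took 65.0% of the reads on the pair, 431 to 489 reads per library against 190 to 290 on POLRMT. With the copy's reads added, the log2 fold change was 0.12 (adjusted p = 0.33), so the level of POLRMT is uncertain.

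TFAM (chromosome 10, 58385345 to 58399220, ENSG00000108064.11), which bends promoter DNA and packages the mitochondrial genome, was at a higher level than POLRMT and TFB2M as counted, an order that turned for POLRMT in all 6 libraries with the reads of POLRMTP1 added to it, and in some of them with those of TFAMP1 added to TFAM as well. It was at 25.6 and 25.7 TPM in WT, 27.97 and 25.8 TPM in PDHB+/-_1, and 29.2 and 28.2 TPM in PDHB+/-_2. All PDHB+/- libraries were above WT, the lowest of them by a narrow margin. The log2 fold change was 0.11 ± 0.07 (adjusted p = 0.30), below the median of all genes, and it changed sign to -0.03 after median-of-ratios scaling (adjusted p = 0.72). TFAMP1, a processed pseudogene, held 13.9% of the reads on TFAM and its copy.

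TFB2M (chromosome 1, 246540561 to 246566261, ENSG00000162851.8), which opens the promoter DNA for the polymerase, was at 13.0 and 11.2 TPM in WT, 15.5 and 13.0 TPM in PDHB+/-_1, and 17.8 and 16.8 TPM in PDHB+/-_2. Replicate 2 of PDHB+/-_1 fell within the WT range, and both PDHB+/-_2 libraries lay above it. The log2 fold change was 0.35 ± 0.13 (adjusted p = 0.084), and 0.22 after median-of-ratios scaling (adjusted p = 0.21). Without the low replicate 2 of PDHB+/-_1 it was called, at 0.44 (adjusted p = 0.028), and without any other library left out in turn it was not (adjusted p from 0.13 to 0.39).

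TEFM (chromosome 17, 30897336 to 30906238, ENSG00000172171.11), the elongation factor that keeps the polymerase on its template, rose by the test as deposited. It was at 15.2 and 16.5 TPM in WT, 19.4 and 18.4 TPM in PDHB+/-_1, and 22.2 and 19.6 TPM in PDHB+/-_2. The groups did not overlap, and all PDHB+/- values were higher. The log2 fold change was 0.31 ± 0.09 (adjusted p = 0.043), which is 0.18 above the median of all genes. The call was lost after median-of-ratios scaling, where the change was 0.17 (adjusted p = 0.15), with no filter on low values (adjusted p = 0.075) and with no variance trend (adjusted p = 0.060). It was also lost without WT replicate 1 or 2 (adjusted p = 0.24 and 0.13), without replicate 1 of PDHB+/-_1 (0.067) and without replicate 1 or 2 of PDHB+/-_2 (0.062 and 0.067). TEFM rested on 93 to 148 reads per library, and 20.5% of its annotated exonic bases overlap an antisense long noncoding RNA, whose reads cannot be told apart where counting did not use strand.

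TWNK (chromosome 10, 100987367 to 100994403, ENSG00000107815.10) showed the largest difference among the 10 genes. It encodes Twinkle, the helicase that unwinds mitochondrial DNA for replication. TWNK was at 10.6 and 12.8 TPM in WT, 20.5 and 17.5 TPM in PDHB+/-_1, and 19.2 and 16.0 TPM in PDHB+/-_2. Every PDHB+/- library was above both WT libraries, and replicate 1 was the higher of each PDHB+/- pair. The mean was 11.7 ± 1.55 TPM (SD, n = 2) in WT and 18.3 ± 1.97 TPM (SD, n = 4) in PDHB+/- cells, a ratio of 1.56. The log2 fold change was 0.60 ± 0.12 (adjusted p = 0.011), or 0.47 above the median of all genes, and 11.1% of tested genes had a higher one. It remained called after median-of-ratios scaling at 0.46 ± 0.11 (adjusted p = 0.025). Without WT replicate 1 the call was lost, with a change of 0.48 (adjusted p = 0.0997). Of the exonic bases of TWNK, 3.60% overlap MRPL43 on the other strand.

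Of the 3 genes of transfer RNA processing in the group, HSD17B10 was called as higher as deposited, and none was called after median-of-ratios scaling. TRMT10C and HSD17B10 are subunits of mitochondrial RNase P, which cuts the 5′ end of transfer RNAs, and ELAC2 encodes the enzyme that cuts the 3′ end. HSD17B10 (chromosome X, 53431258 to 53434370, ENSG00000072506.14), which is also a dehydrogenase of isoleucine breakdown, had the highest TPM values of the 10 genes. It was at 129 and 138 TPM in WT, 166 and 159 TPM in PDHB+/-_1, and 176 and 156.4 TPM in PDHB+/-_2, with no overlap between the groups. Its log2 fold change was 0.30 ± 0.08 (adjusted p = 0.024), and after median-of-ratios scaling it was 0.15 and not called (adjusted p = 0.099). The call was also lost without WT replicate 1 or 2 (adjusted p = 0.18 and 0.102). Part of its exons, 7.73% of the bases, is shared with a long noncoding RNA on the same strand.

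TRMT10C (chromosome 3, 101561868 to 101566446, ENSG00000174173.7), the subunit that methylates transfer RNAs and binds them for cutting, was at 68.7 and 69.4 TPM in WT, 69.8 and 56.8 TPM in PDHB+/-_1, and 67.8 and 68.6 TPM in PDHB+/-_2. Replicate 2 of PDHB+/-_1 was low, and the other libraries lay close to each other. As deposited it was the only one of the 10 genes with a fitted change below 0, at -0.07 ± 0.10 (adjusted p = 0.59), and -0.22 after median-of-ratios scaling (adjusted p = 0.088).

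ELAC2 (chromosome 17, 12991612 to 13018065, ENSG00000006744.19) was at 55.9 and 60.3 TPM in WT, 64.0 and 56.0 TPM in PDHB+/-_1, and 65.5 and 60.9 TPM in PDHB+/-_2. The groups overlapped. The log2 fold change was 0.08 ± 0.08 (adjusted p = 0.49) and changed sign to -0.06 after median-of-ratios scaling (adjusted p = 0.53). As deposited it was 0.029 without WT replicate 1, 0.14 without WT replicate 2 and 0.13 without replicate 2 of PDHB+/-_1.

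PRORP, the nuclease subunit of mitochondrial RNase P, is not one of the 10 genes but was measured beside its partners. It was at 23.7 and 21.9 TPM in WT, 16.7 and 17.5 TPM in PDHB+/-_1, and 17.8 and 19.9 TPM in PDHB+/-_2. All PDHB+/- libraries were below both WT libraries, which held for 16.4% of all tested genes. PRORP fell by 0.33 ± 0.09 on the log2 scale (limma, adjusted p = 0.032), and by 0.47 after median-of-ratios scaling (adjusted p = 0.011). Its call was lost without WT replicate 1 or 2 (adjusted p = 0.20 and 0.11), without replicate 1 or 2 of PDHB+/-_1 (0.060 and 0.061) and without replicate 1 of PDHB+/-_2 (0.058). As deposited the 3 subunit genes of RNase P thus gave a rise in HSD17B10, a fall in PRORP and no call for TRMT10C. Of the exonic bases of PRORP, 45.9% overlap other annotated genes and 40.9% do so on the same strand, so part of its reads is of uncertain origin.

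LRPPRC and SLIRP encode proteins that bind each other and protect mitochondrial messenger RNAs from decay. LRPPRC (chromosome 2, 43886224 to 43996226, ENSG00000138095.20) had the most reads of the 10 genes, 2384 to 3431 per library, and the closest replicates in PDHB+/- cells relative to its level. It was at 73.6 and 72.3 TPM in WT, 90.3 and 86.5 TPM in PDHB+/-_1, and 94.1 and 92.4 TPM in PDHB+/-_2. The groups did not overlap, and the gap between them was wider than the spread within either. Its log2 fold change was 0.31 ± 0.07 (adjusted p = 0.012), or 0.18 above the median of all genes. After median-of-ratios scaling the change was 0.17 ± 0.05 and just missed the threshold (adjusted p = 0.0501). Without WT replicate 1 or 2 the change was 0.32 and 0.30 and was not called (adjusted p = 0.089 and 0.11).

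SLIRP (chromosome 14, 77708071 to 77761104, ENSG00000119705.10) was at 84.3 and 101 TPM in WT, 110 and 110 TPM in PDHB+/-_1, and 112 and 89.2 TPM in PDHB+/-_2. Replicate 2 of PDHB+/-_2 fell between the WT libraries, so the groups overlapped. The log2 fold change was 0.19 ± 0.12 (adjusted p = 0.27), and 0.04 after median-of-ratios scaling (adjusted p = 0.82). Without WT replicate 1 it was 0.06 and without WT replicate 2 it was 0.31, not called in either case (adjusted p = 0.82 and 0.23). Of its annotated exonic bases, 14.8% overlap C14orf178 or SNW1.

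**Figure D2:**
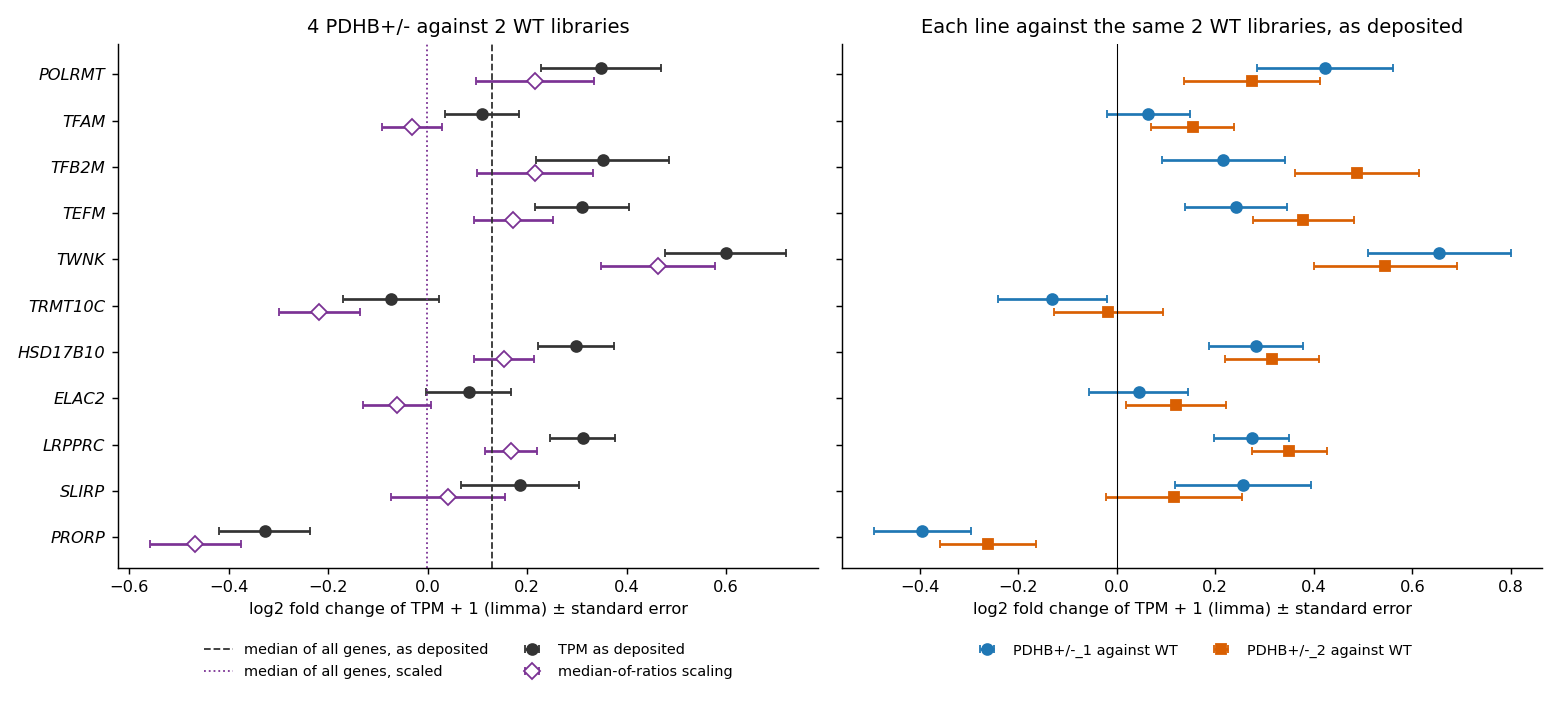
Log2 fold change of TPM + 1 with its standard error (x axis) for the 10 genes and PRORP (y axis). Left, the 4 PDHB+/- against the 2 WT libraries as deposited (circles) and after median-of-ratios scaling (diamonds), with the medians of all genes at 0.13 and -0.00059 as vertical lines. Right, each line against the same WT libraries. TWNK lies farthest to the right in both panels and PRORP farthest to the left.

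Each PDHB+/- line was also compared with WT by itself, in 1 fit over the 3 groups. Both comparisons use the same 2 WT libraries. In PDHB+/-_1, 1 of the 10 genes was called, where 19.9% of all tested genes were called. This was TWNK, with a log2 fold change of 0.65 ± 0.15 (adjusted p = 0.030). In PDHB+/-_2, 3 of the 10 genes were called, where 20.0% of all genes were. These were TWNK at 0.55 ± 0.15 (adjusted p = 0.048), TFB2M at 0.49 ± 0.13 (adjusted p = 0.044) and LRPPRC at 0.35 ± 0.08 (adjusted p = 0.028). The call of TWNK in PDHB+/-_2 was lost when only the libraries of WT and that line were fitted (adjusted p = 0.053). It was also lost with the replicate number as a block (limma, adjusted p = 0.051). In PDHB+/-_1 the change of TFB2M was 0.22 (adjusted p = 0.26) and that of LRPPRC 0.27 (adjusted p = 0.053). After median-of-ratios scaling TWNK remained the 1 called gene in PDHB+/-_1, where 20.0% of all genes were called. In PDHB+/-_2 this scaling gave 0 of the 10, where 16.5% of all genes were called, with 4 of the 10 and 33.8% of all genes at an unadjusted p under 0.05. Quantile normalization also gave 0 of the 10 in PDHB+/-_2, where 18.7% of all genes were called.

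The lines were then compared with each other. Between PDHB+/-_2 and PDHB+/-_1, 3 of 17291 genes were called, or 0.0174%, and none of the 10 was among them (limma, adjusted p of 1.0 for each). None of the 10 had an unadjusted p under 0.05 in this fit, which has no replicate block. The largest difference was in TFB2M, which was 0.27 ± 0.13 higher in PDHB+/-_2 on the log2 scale (unadjusted p = 0.073). With the replicate number as a block it had an unadjusted p of 0.027 and was not called (limma, adjusted p = 0.89). A TFB2M call in PDHB+/-_2 and not in PDHB+/-_1 is therefore not shown to be a difference between the lines.

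Ratios between 2 genes of 1 library do not depend on the scaling of that library. In all, 8 ratios were compared by an exact two-sided permutation test over the 15 ways to choose the PDHB+/- libraries, which cannot give a p below 0.067, so none could pass 0.05. The ratio of TRMT10C to HSD17B10, subunits of RNase P, was 0.533 and 0.504 in WT, 0.420 and 0.358 in PDHB+/-_1, and 0.385 and 0.438 in PDHB+/-_2. All 4 PDHB+/- libraries were below WT, and the mean log2 ratio was lower by -0.38 (exact permutation p = 0.067, adjusted over the 8 ratios p = 0.27). The ratio of TRMT10C to PRORP was 2.90 and 3.17 in WT, 4.18 and 3.25 in PDHB+/-_1, and 3.81 and 3.45 in PDHB+/-_2. It was higher in all 4 PDHB+/- libraries, by 0.27 in log2 (exact permutation p = 0.13, adjusted p = 0.27).

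The ratio of ELAC2 to TRMT10C, the 3′ over a 5′ processing factor, was 0.841 in WT and 0.939 in PDHB+/- cells as geometric means. It was higher in all 4 PDHB+/- libraries, by 0.16 in log2 (exact permutation p = 0.13, adjusted p = 0.27). The ratio of POLRMT to TFAM was 0.375 and 0.334 in WT, 0.505 and 0.428 in PDHB+/-_1, and 0.376 and 0.405 in PDHB+/-_2. The groups did not overlap, although the lowest PDHB+/- value exceeded the higher WT value by a narrow margin. The difference was 0.27 in log2 (exact permutation p = 0.13, adjusted p = 0.27). With the reads of POLRMTP1 added to POLRMT it was 0.0093, and 0.05 with those of TFAMP1 added to TFAM as well, and the groups then overlapped, so the ratios that hold POLRMT are uncertain.

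The other four ratios overlapped between the groups. LRPPRC to SLIRP was 0.872 and 0.719 in WT and 0.788 to 1.04 in PDHB+/- cells, a log2 difference of 0.13 (exact permutation p = 0.53). TWNK to POLRMT was 1.11 and 1.49 in WT and 1.40 to 1.75 in PDHB+/- cells (log2 difference 0.26, exact permutation p = 0.27), and the difference was 0.045 without WT replicate 1 and 0.47 without WT replicate 2. TFB2M to POLRMT was 1.36 and 1.30 in WT, lower in both PDHB+/-_1 libraries (1.10 and 1.17) and higher in both PDHB+/-_2 libraries (1.62 and 1.47), and the mean over the 4 differed from WT by -0.0048 in log2 (exact permutation p = 1.0). TEFM to POLRMT differed by -0.05 in log2 (exact permutation p = 0.87).

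**Figure D3:**
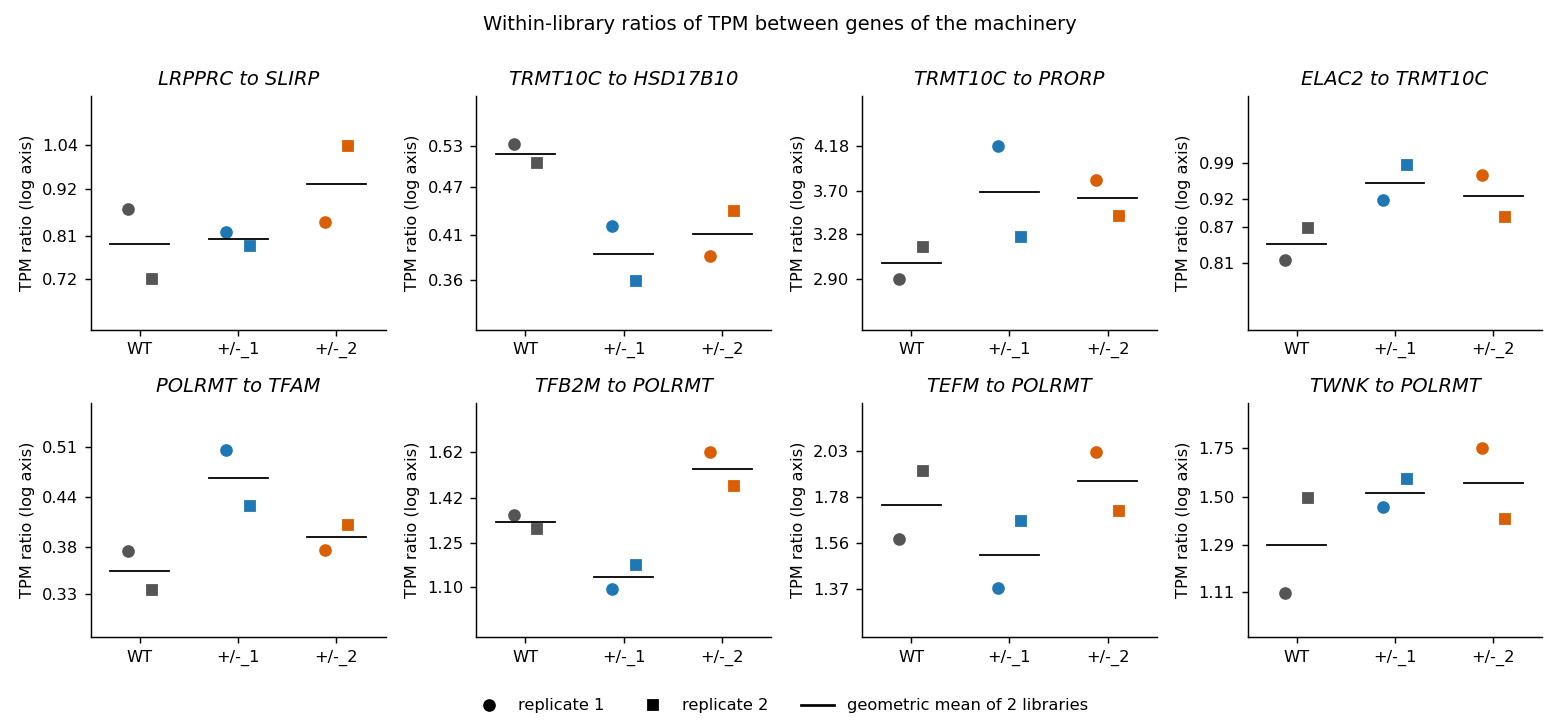
Ratio of TPM between 2 genes within each library (y axis, log scale with its own range in each panel) for WT, PDHB+/-_1 and PDHB+/-_2 (x axis). Circles are replicate 1, squares replicate 2 and lines the geometric mean. TRMT10C to HSD17B10 is below both WT values in all 4 PDHB+/- libraries, and TFB2M to POLRMT lies below WT in PDHB+/-_1 and above it in PDHB+/-_2.

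The products of this machinery, the RNAs encoded by mitochondrial DNA, summed to less in every PDHB+/- library than in WT, while no gene of the 10 was called lower. The sums were tested by the exact permutation test, which cannot pass 0.05 with these libraries, and by single genes 12 of the 13 messenger RNAs, both ribosomal RNAs and 11 of the 22 transfer RNAs were not called as deposited. The summed level of the 13 messenger RNAs was 219312 and 218709 TPM in WT, 110052 and 181941 TPM in PDHB+/-_1, and 97323 and 190508 TPM in PDHB+/-_2. All PDHB+/- libraries were below WT, and replicate 1 of each line was lower than replicate 2. Replicate 1 of the lines averaged 47.3% of the WT mean and replicate 2 averaged 85.0%. The mean log2 difference was -0.66 (exact permutation p = 0.13). The 2 ribosomal RNAs together gave -0.65 (exact permutation p = 0.13), at 51.6% of WT in replicate 1 and 78.7% in replicate 2.

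The 22 transfer RNAs had the widest difference of these 3 classes. They summed to 9836 and 9540 TPM in WT, 2775 and 4345 TPM in PDHB+/-_1, and 3149 and 5031 TPM in PDHB+/-_2. The mean log2 difference was -1.38 (exact permutation p = 0.067, the smallest that 2 against 4 libraries can give), at 30.6% of WT in replicate 1 and 48.4% in replicate 2. By single genes 11 of 22 transfer RNAs were called lower, 1 of 13 messenger RNAs and 0 of 2 ribosomal RNAs, beside 8.86% of all tested genes. After median-of-ratios scaling these counts were 12, 1 and 1, beside 14.5%, and the ribosomal RNA called was RNR2 (-0.85 in log2, adjusted p = 0.044). The called messenger RNA was ND6, the one encoded on the other strand from the rest, at 5710 ± 188 TPM in WT and 3074 ± 892 TPM in PDHB+/- cells (log2 fold change -0.94, adjusted p = 0.032). Where counting did not use strand, reads of the precursor from the opposite strand cannot be told apart from those of ND6. ND6 was not called without WT replicate 1 or 2 (adjusted p = 0.14 and 0.17) or without replicate 1 of PDHB+/-_1 (0.062). TRNR and TRNK, the transfer RNAs for arginine and lysine, had the largest falls among the called ones, at -3.94 and -3.17, with as few as 3 and 2 reads in a library. Mature transfer RNAs are short and modified, and how well these libraries captured them was not tested.

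**Figure D4:**
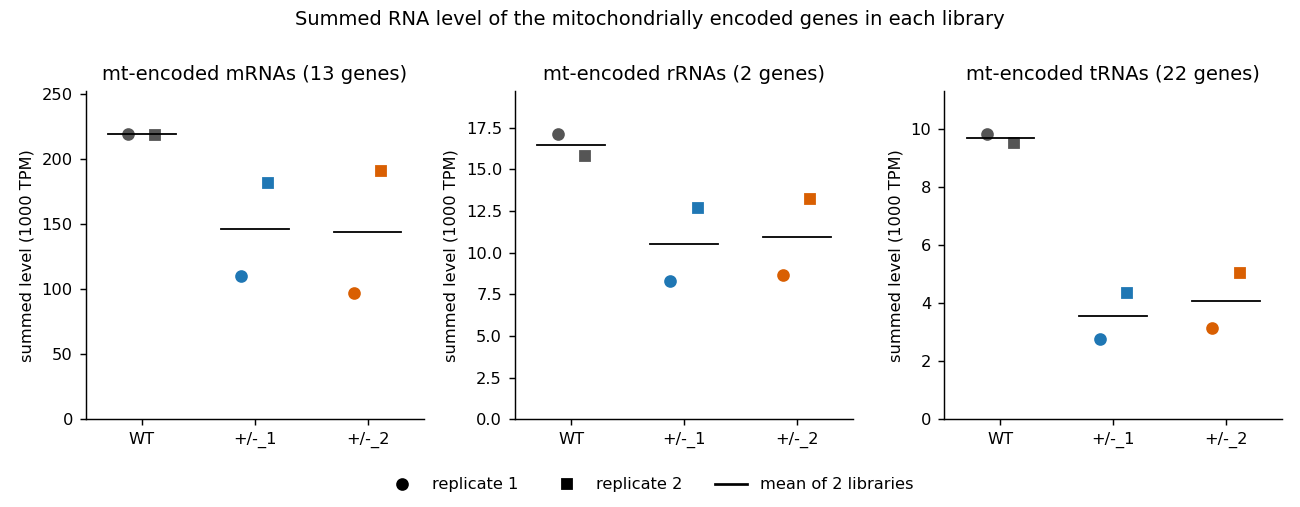
Summed RNA level in units of 1000 TPM (y axis, from 0) of the 13 messenger, 2 ribosomal and 22 transfer RNAs encoded by mitochondrial DNA in the WT, PDHB+/-_1 and PDHB+/-_2 libraries (x axis). Circles are replicate 1, squares replicate 2 and lines the mean of 2 libraries. In both PDHB+/- lines replicate 1 lies below replicate 2, and every PDHB+/- library lies below WT.

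Since the replicates of the lines differed in these RNAs, the 10 genes were compared within each replicate number. With replicate 1 of the lines against both WT libraries, 5 of the 10 were called higher, TWNK, LRPPRC, HSD17B10, TEFM and TFB2M, where 28.7% of all genes were. With replicate 2, 3 of the 10 were called higher, TWNK, LRPPRC and HSD17B10, where 21.3% of all genes were. TWNK gave 0.72 with replicate 1 (limma, adjusted p = 0.0085) and 0.48 with replicate 2 (adjusted p = 0.029). LRPPRC gave 0.33 and 0.29. The part that the share of mitochondrial RNA took in these differences was not tested.

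Genes around the machinery were summarized by lists, whose counts stand beside 22.8% of all tested genes called as higher and 8.86% as lower, or 14.0% and 14.5% after median-of-ratios scaling. Of 14 genes of mitochondrial DNA replication and maintenance, 1 was higher and 1 lower, with a median log2 fold change of 0.16, and 1 and 1 after median-of-ratios scaling. POLG, the catalytic subunit of the DNA polymerase that works behind the Twinkle helicase, was at 24.9 and 24.0 TPM in WT, 41.3 and 35.5 TPM in PDHB+/-_1, and 38.5 and 34.3 TPM in PDHB+/-_2. POLG rose by 0.59 ± 0.09 (limma, adjusted p = 0.0041) and by 0.45 after median-of-ratios scaling (adjusted p = 0.0069). DNA2, a nuclease and helicase shared with the nucleus, fell by 0.34 (adjusted p = 0.033). DNA2 stayed called without replicate 1 of PDHB+/-_2 but not without any other library left out in turn (adjusted p from 0.063 to 0.25), while POLG stayed called each time. SSBP1, the single-strand binding protein that works with TWNK and POLG at the replication fork, was at 34.2 TPM on average in WT and 34.1 TPM in PDHB+/- cells (adjusted p = 0.98).

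Of 6 genes of termination and other transcription factors, 1 was higher and 1 lower, with a median of -0.04, and after median-of-ratios scaling 0 were higher and 2 lower, TFB1M joining MTERF3 at -0.43 (adjusted p = 0.038). MTERF3, a repressor of mitochondrial transcription initiation, was at 27.7 and 26.4 TPM in WT and 20.8 to 22.9 TPM in PDHB+/- cells and fell by 0.29 (adjusted p = 0.024), and by 0.43 after median-of-ratios scaling (adjusted p = 0.0095). MRPL12, a ribosomal protein that also binds POLRMT, was at 135 ± 8.09 TPM in WT and 162 ± 9.36 TPM in PDHB+/- cells, with 0.26 as deposited (adjusted p = 0.044) and 0.12 after scaling (adjusted p = 0.29). MTERF3 was not called without WT replicate 1 or 2 (adjusted p = 0.17 and 0.11), and MRPL12 only stayed called without replicate 2 of PDHB+/-_2 (adjusted p from 0.070 to 0.28 without the others).

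Of 24 tested genes of RNA processing, polyadenylation and decay, 5 were higher and 2 lower, with a median of 0.13 like that of all genes. PDE12, which removes poly(A) tails from mitochondrial RNAs, fell the most, from 4.40 ± 0.04 to 1.93 ± 0.46 TPM (log2 fold change -0.89, adjusted p = 0.0087). C1QBP, a matrix protein, was at 114 ± 1.66 TPM in WT and 152 ± 11.8 TPM in PDHB+/- cells (0.41, adjusted p = 0.012). PNPT1, the polynucleotide phosphorylase of the mitochondrial degradosome, was at 7.08 ± 0.47 and 9.59 ± 0.63 TPM (0.39, adjusted p = 0.021), and its call was lost after median-of-ratios scaling (adjusted p = 0.097). Without WT replicate 1 or 2 the adjusted p was 0.068 and 0.074 for PDE12, 0.083 and 0.102 for C1QBP, and 0.15 and 0.085 for PNPT1. After that scaling 1 gene of this list was higher and 4 were lower, beside 14.0% and 14.5% of all genes.

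Of 28 genes that modify mitochondrial transfer or ribosomal RNA, 7 were higher and 1 lower, with a median of 0.12. The share called as higher was close to that of all genes. NSUN3, a methyltransferase of the methionine transfer RNA, was at 7.31 and 7.07 TPM in WT and 10.7 to 12.3 TPM in PDHB+/- cells, and rose by 0.60 (adjusted p = 0.0035). MRM3, which methylates the large ribosomal RNA, was at 9.43 ± 0.06 TPM in WT and 13.7 ± 1.75 TPM in PDHB+/- cells (0.48, adjusted p = 0.023). DUS2, a dihydrouridine synthase, fell by 0.38 (adjusted p = 0.040). NSUN3 stayed called without any 1 library, MRM3 not without WT replicate 1 or 2 (adjusted p = 0.12 and 0.13) or after median-of-ratios scaling (adjusted p = 0.060), and DUS2 only without replicate 2 of PDHB+/-_2 (adjusted p from 0.058 to 0.21 without the others). After median-of-ratios scaling 3 of the 28 were higher and 5 lower, beside 14.0% and 14.5% of all genes.

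Of 11 tested nuclear regulators of mitochondrial biogenesis, 2 were higher and 0 lower, with a median of 0.07, and 2 and 0 after median-of-ratios scaling. MYC was at 13.7 and 14.5 TPM in WT, 49.8 and 41.0 TPM in PDHB+/-_1, and 44.3 and 40.0 TPM in PDHB+/-_2, and rose by 1.56 ± 0.10 (adjusted p = 0.00022). ESRRA, a nuclear receptor that works with the PGC-1 coactivators, was at 8.49 TPM in both WT libraries and at 15.2 to 18.7 TPM in PDHB+/- cells, a rise of 0.91 ± 0.10 (adjusted p = 0.0014). Both MYC and ESRRA stayed called without any 1 library. The factors NRF1, GABPA, YY1 and SP1 were not called. NRF1 was at 16.2 and 14.4 TPM in WT and PDHB+/- cells on average (adjusted p = 0.20), GABPA, an ETS factor, at 22.3 and 23.5 TPM (adjusted p = 0.67), YY1 at 51.0 and 52.7 TPM (adjusted p = 0.75) and SP1 at 49.7 and 47.6 TPM (adjusted p = 0.49).

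The 13 reference genes for mitochondrial mass gave 5 higher and 0 lower, with a median of 0.23, beside 0.30 for the 10 genes of the machinery and 0.13 for all genes. After median-of-ratios scaling 3 were higher and 0 lower, with a median of 0.08, beside 0.16 for the 10 genes. TOMM20, a receptor of the protein import channel, was at 291 ± 7.36 TPM in WT and 459 ± 43.3 TPM in PDHB+/- cells (0.65, adjusted p = 0.0040). HSPA9, a chaperone of the matrix, was at 53.5 ± 2.59 and 73.8 ± 5.50 TPM (0.45, adjusted p = 0.0086). Both remained called after median-of-ratios scaling, at 0.51 and 0.31. Without WT replicate 2 the adjusted p was 0.051 for TOMM20 and 0.055 for HSPA9, and without WT replicate 1 it was 0.086 for HSPA9. The number of mitochondria was not measured.

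**Figure D5:**
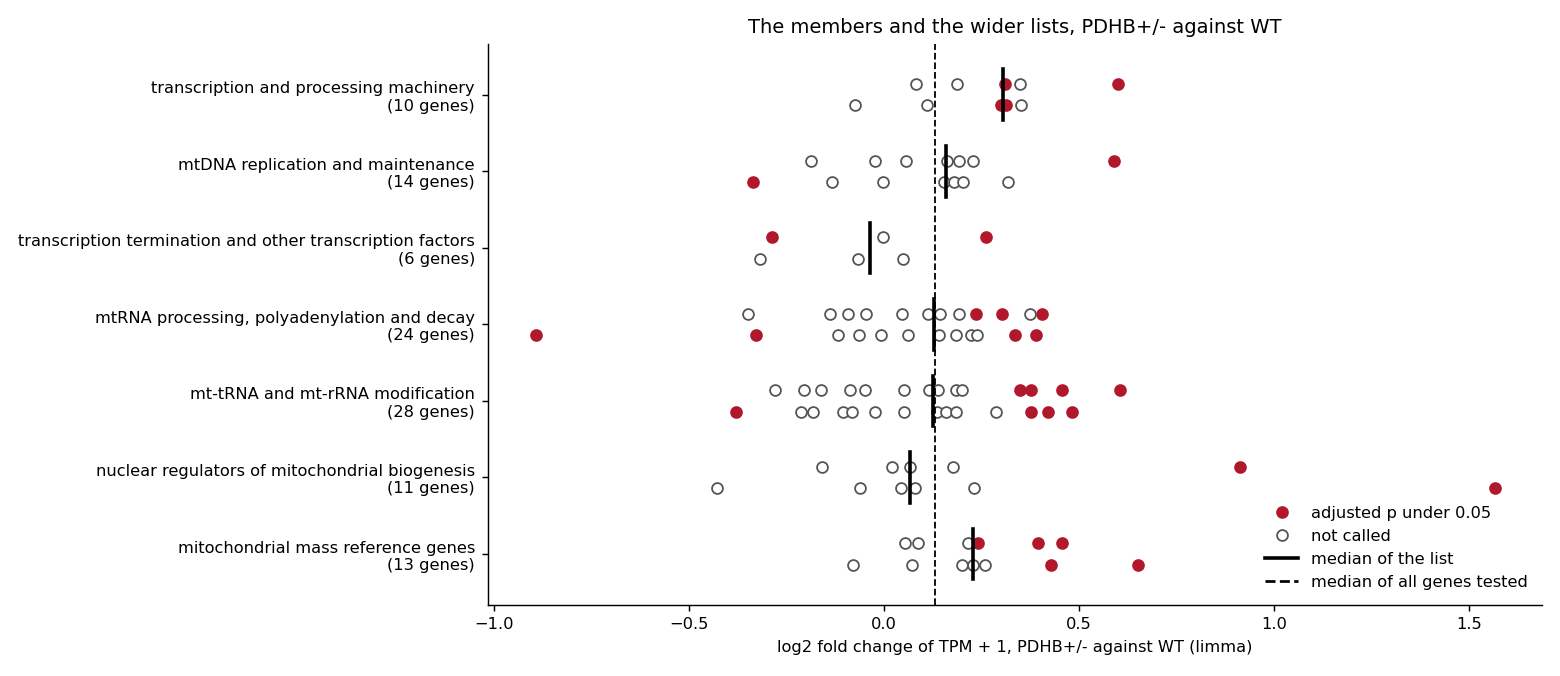
Log2 fold change of TPM + 1 in PDHB+/- against WT (x axis) of every tested gene of the machinery and of 6 wider lists (y axis). Filled points passed an adjusted p of 0.05 (limma), short bars are list medians and the dashed line is the median of all genes at 0.13. The 10 genes of the machinery have a median of 0.30, and MYC is the point farthest to the right.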

How the data were processed

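Reads were mapped by the authors to hg38 with bowtie2 (2.3.5.1 per the submitters' processing notes), each at 1 location only, assigned to genes by featureCounts, and deposited as TPM values. Other values of this deposited table are 1 line without a name that repeats the total of each library, which was dropped. All 6 columns were used. Whether counting used strand is not given in the sources used here. DESeq2, which the authors name, takes counts and was not used here.

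Reads per gene were recovered from the TPM values, which are whole reads divided by gene length and a constant for each library. This gave whole reads (tolerance 0.0002) for 100% of 34899 genes above 0, and the 15 mitochondrially encoded genes other than transfer RNAs had the annotated length. A level of 3 reads on 1000 bases was 0.522 to 0.638 TPM, and such limits cover counting error only.

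The comparison covered genes averaging 1 TPM or more, as log2(TPM + 1) with limma 3.58.1 in R 4.3.3 (lmFit, eBayes with a trend), with Benjamini-Hochberg adjustment over all 17291 genes and calls under 0.05. A fold change on this scale understates the change of low genes. WT and PDHB+/- were fitted as 2 groups, and the lines as 3 groups. Scripts were tested on simulated data. Ratios and sums were compared by exact two-sided permutation tests. Alternatives were another pseudocount (0.1 TPM), no filter or a filter of 5 TPM, a replicate block, quantile normalization, median-of-ratios scaling, no variance trend, 3 groups, limma voom on recovered reads and leaving out each library. For the lines, a fit of the libraries of the compared pair only was another. TPM over nuclear genes, voom with size factors, 1 replicate of each line and sums and the POLRMT to TFAM ratio with pseudogenes were added after seeing the data.

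All 10 genes and PRORP are named. Of each wider list, the 2 largest rises and 2 largest falls are named among called genes without overlap between PDHB+/- and WT libraries. PDHB, POU5F1, NANOG, SOX17, FOXA2 and CXCR4 checked the labels. SSBP1, NRF1, GABPA, YY1, SP1, CER1, ZFP42, TFB1M and RNR2 were named after their values were seen. So were EOMES, GSC, HHEX, MIXL1, KDR, PDGFRA, HAND1, TBXT, TBX6, MESP1, FOXF1, OTX2, NES, ZIC1 and PAX6. The genes and lists were chosen with earlier results of these data known. Positions and overlaps came from GENCODE on hg38. Python 3.11.15, numpy 2.4.6, pandas 2.3.3 and matplotlib 3.10.9 were used.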

Additional observations from a re-analysis of the deposited data

Results flagged for a closer look

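Of 21 values examined in the 4 PDHB+/- libraries (10 levels, 8 ratios and 3 sums), 3 had a library far from the other three, where chance gives about 1 in 20. POLRMT was at 14.1 TPM in replicate 1 of PDHB+/-_1, above the other three PDHB+/- libraries. TRMT10C was at 56.8 TPM in replicate 2 of PDHB+/-_1, below them, and SLIRP at 89.2 TPM in replicate 2 of PDHB+/-_2, below them. Without these libraries the log2 fold change of POLRMT was 0.27 (limma, adjusted p = 0.076), that of TRMT10C -0.0063 (adjusted p = 0.95) and that of SLIRP 0.26 (adjusted p = 0.076), and none of the 3 was called with or without them.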

How the results depend on the processing

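The number of the 10 genes called in PDHB+/- against WT depended on how libraries were scaled to each other and on the WT libraries. Against 4 called as deposited, 1 was called after median-of-ratios scaling, 1 after quantile normalization, 1 with TPM over nuclear genes only, 2 with limma voom on recovered reads and 1 with voom and median-of-ratios size factors. TWNK was called under each of these, LRPPRC also under voom on recovered reads. Of all 17291 genes, 3943 were called higher as deposited, 2426 after median-of-ratios scaling and 2720 after quantile normalization. Voom on recovered reads gave 2911 and voom with size factors 2598, and TPM over nuclear genes gave 2417 of 18031. With no filter or no variance trend 3 were called, TEFM losing its call (adjusted p = 0.075 and 0.060). In these fits 2988 of 34899 and 3595 of 17291 genes were called higher. Leaving out each library in turn gave 0 to 5 called of the 10 and 1654 to 5200 called genes in all. The lowest counts of all genes were 1772 without WT replicate 1 and 1654 without WT replicate 2, where 0 and 1 of the 10 were called and the lone WT library is assumed to vary like the others. In PDHB+/-_2, 0 of the 10 were called after median-of-ratios scaling, quantile normalization or TPM over nuclear genes. All genes called in these fits were 2857 and 3236 of 17291 and 2892 of 18031. Between the lines 8 genes were called with TPM over nuclear genes instead of 3, none of them of the 10.

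Replicate numbers of WT and the lines did not pair the libraries (correlation of deviations -0.012 and -0.0075, and 0.35 between the lines). With the replicate number as a block 6266 genes were called in PDHB+/- against WT and the number of the 10 stayed at 4. In PDHB+/-_1 the block gave 2 of the 10, TWNK and LRPPRC, where 4433 of 17291 genes were called, against 3433 without the block. In PDHB+/-_2 it gave 3, TFB2M, TEFM and LRPPRC, where 4497 of 17291 genes were called, against 3460 without the block. Compared with the fit without the block, TWNK lost its call in PDHB+/-_2 (adjusted p = 0.051) and TEFM gained one (adjusted p = 0.048). Between the lines the block gave TFB2M an unadjusted p of 0.027 (adjusted p = 0.89), and none of the 10 was called.

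The changes that turned direction were small. TFAM gave -0.032 after median-of-ratios scaling, -0.011 after quantile normalization, -0.0054 with voom, -0.039 over nuclear genes and -0.034 with voom and size factors, and ELAC2 gave -0.062, -0.054, -0.035, -0.069 and -0.063. In PDHB+/-_1 median-of-ratios scaling, quantile normalization and nuclear TPM gave -0.060, -0.039 and -0.084 for TFAM and -0.082, -0.080 and -0.11 for ELAC2. In PDHB+/-_2 they gave -0.042, -0.028 and -0.031 for ELAC2 and -0.047, -0.037 and -0.036 for SLIRP, and the first gave -0.0043 for TFAM. HSD17B10 between the lines went to -0.0029 after median-of-ratios scaling. None of these values was called. The ratio of TFB2M to POLRMT gave 0.0032 from TPM + 1. Leaving out 1 library gave log2 differences of -0.10 to 0.086 for TFB2M to POLRMT, -0.19 to 0.086 for TEFM to POLRMT and -0.011 to 0.27 for LRPPRC to SLIRP. The other five ratios and the 3 sums of mitochondrially encoded RNAs kept their direction under each alternative run on them, and the causes of the changes above were not tested. The lowest counts in a library were 93 reads for TEFM, 102 for TFB2M, 189 for TWNK and 190 for POLRMT.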

Other observations

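POLRMTP1, the processed pseudogene of POLRMT, held more reads than POLRMT in each of the 6 libraries: 431 and 437 in WT, 440 and 489 in PDHB+/-_1, and 438 and 472 in PDHB+/-_2, beside 195 and 190, 290 and 275, and 242 and 265 on POLRMT. Whether these reads come from the copy or from POLRMT was not tested.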
